A study of Mus musculus with 22 samples.

Results

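The comparison was between mouse liver tumors 6 days after YAP1 had been turned off by taking away doxycycline and tumors in which YAP1 was still on. The 4 tumors labelled YAP1 OFF (day 6 tumors) and the 4 tumors labelled YAP1 ON (YAP1on tumors) were chosen by their labels, and made up 8 of the 17 RNA libraries and of 22 libraries in all. Day 6 tumors were hepatoblastoma tumors off doxycycline and YAP1on tumors were hepatoblastoma tumors on doxycycline. All 8 carried, by the labels, the transgene Tg(CAG-rtTA3)4288Slowe/J on the background B6N.FVB(Cg), in which the broadly active CAG promoter drives rtTA3, an activator that needs doxycycline to bind its target promoter. The labels name no other transgene and give no age or sex. All tumors of a group share 1 mouse code, so the mouse, doxycycline and YAP1 cannot be told apart, and p-values measure no spread between mice given the same treatment. They rest on a spread shared by all 4 RNA groups of the series, hbHep and FAH liver included. With only the 8 tumors 5460 genes passed, against 4248 with all groups. The series' design text calls the day 6 samples liver, whereas the labels call them tumors.

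YAP1 is a transcriptional coactivator that the kinases of the Hippo pathway keep out of the nucleus. In the nucleus it binds DNA through TEAD factors and raises genes of growth, adhesion and matrix; in the liver its activity is kept low in hepatocytes and is high in bile duct and progenitor cells. Hepatoblastoma is a liver cancer of early childhood whose cells resemble immature hepatocytes, and it often carries active beta-catenin together with active YAP1. The question was which genes moved in the first days after the driver was lost, beyond the hepatocyte functions and the cell division genes that are usually followed.

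The RNA was total RNA of whole tumor pieces, so all cell types of a piece were read together; in such bulk samples fewer cells of a type and less RNA per cell cannot be told apart. Values are given as abundance, the authors' deposited scaled reads per base of each gene after division by 1 factor per library (0.9585 to 1.095), so levels of different genes can be compared per length. Log2 fold changes are day 6 minus YAP1on on the log2(abundance + 1) scale, and adjusted p-values are limma's over 17958 genes. The reads behind a given abundance in day 6 tumors were 53.3 to 74% and in YAP1on tumors 68.5 to 100% of those in the deepest of the 8 libraries. Between 22274 and 22708 genes were above 0 in day 6 tumors and between 22932 and 23784 in YAP1on tumors. Correlations across genes of the log2 values were 0.9817 to 0.9854 within day 6 tumors, 0.9784 to 0.9849 within YAP1on tumors and 0.9427 to 0.9589 between the groups. The first principal component of the 8 tumors held 60.6% of the variance and separated the groups. The second, with 10%, ran from day 6 tumor 4 to day 6 tumor 2 and from YAP1on tumor 1 to YAP1on tumor 4. The 10 most abundant genes held 22.4% of the signal in day 6 tumor 4 and 21.7% in YAP1on tumor 1. They held 12.2% in day 6 tumor 2 and in YAP1on tumor 4. The part of this share in the second component was not tested.

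Yap1 itself (ENSMUSG00000053110, chromosome 9, 7931999 to 8004638) had an abundance of 1254, 1166, 1166 and 1097 in day 6 tumors 1 to 4, against 5309, 9790, 7872 and 10810 in YAP1on tumors 1 to 4. The groups did not overlap, and the day 6 level lay beside the 1130 ± 189 of hbHep and the 1265 ± 110 of FAH liver (SD, n = 3 each). hbHep are the samples the labels call hbHep, from FAH Delta Exon 5 mice, and FAH liver is from FAH Delta Exon 5 mice on the drug NTBC. Each hbHep mouse is labelled with a day far later than day 6, and FAH liver with none. The start of that count is not stated here, so hbHep is no reference matched in time. Yap1 fell at day 6 (log2 fold change -2.80, SE 0.18, adjusted p = 5.76e-08; two-sided exact permutation p = 0.0286, the smallest that 4 against 4 tumors allow). Ctnnb1, which encodes beta-catenin, averaged 12720 ± 1140 in day 6 tumors and 11440 ± 2100 in YAP1on tumors (SD, n = 4 each; exact permutation p = 0.343; limma log2 fold change 0.17 with adjusted p = 0.425). With quantile normalization the difference pointed the other way (-0.28, adjusted p = 0.187). Of markers used to name this tumor, Gpc3, a cell surface proteoglycan of fetal liver, averaged 551.6 ± 61.3 in day 6 and 6050 ± 2190 in YAP1on tumors. Afp averaged 46.7 ± 1.14 in day 6 and 121.7 ± 41.3 in YAP1on tumors (adjusted p = 0.126), beside 141.7 ± 24.4 in FAH liver. Its tumor groups did not overlap (45.2 to 47.98 in day 6 and 79.2 to 175.5 in YAP1on tumors), as for 14.1% of all genes. The shared spread of Afp also holds hbHep mice at 966.4, 19030 and 3571. Dlk1, another fetal liver gene, was at most 0.689 in day 6 tumors and at most 1.06 in YAP1on tumors.

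Across all genes the day 6 tumors differed widely from YAP1on tumors, mostly by small steps. Of 17958 genes tested, 2296 rose (12.8% of those tested) and 1952 fell (10.9%); 795 rose (4.43%) and 949 fell (5.28%) by at least 2-fold. Changes under 2-fold made up 58.9% of the 4248 calls, and 485 genes changed over 4-fold, 172 of them higher and 313 lower at day 6. Leaving out 360 tested genes of a hepatocyte list and 305 of a cell division list took away 232 of the risen and 264 of the fallen genes: of the other 17293 genes 2064 rose (11.9%) and 1688 fell (9.76%). The median log2 fold change of all genes was 0.02. By chromosome the median lay between -0.04 on X and 0.05 on chromosome 19. Called genes were 24.9% of 15504 protein coding genes and 13.7% of 73 long noncoding RNAs with a RefSeq match.

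**Figure D1:**
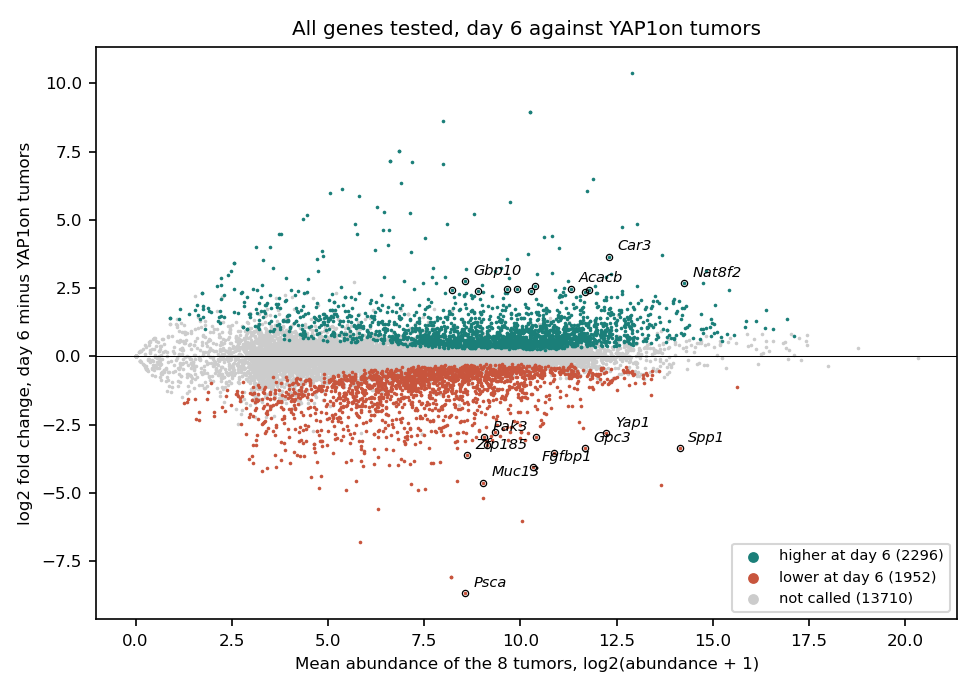
Log2 fold change (day 6 minus YAP1on tumors) of the 17958 genes tested against their mean log2(abundance + 1) over the 8 tumors. Genes higher at day 6 (2296) are green, genes lower at day 6 (1952) are red and genes not called are grey. Rings mark the 12 genes of largest change in each direction among abundant genes outside the hepatocyte and cell division lists, 12 of which are named. Psca lies lowest among the ringed genes at -8.67 and Car3 highest at 3.66.

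The 12 abundant genes of largest rise outside both lists included enzymes and transporters of lipid, sterol and drug handling. Car3, a cytosolic carbonic anhydrase, had an abundance of 9864, 9448, 9396 and 8794 in day 6 tumors, against 646, 748, 846 and 741 in YAP1on tumors. All 4 day 6 tumors lay far above the YAP1on tumors and close to one another (log2 fold change 3.66, SE 0.19, adjusted p = 6.61e-09). Nat8f2, an N-acetyltransferase family member, averaged 33720 ± 641 in day 6 and 5314 ± 584 in YAP1on tumors (2.67). Hsd3b7, which changes the sterol ring in bile acid synthesis, averaged 5964 ± 641 in day 6 and 1116 ± 176 in YAP1on tumors (2.42). Acss2, which makes acetyl-CoA from acetate, averaged 5496 ± 334 in day 6 and 1069 ± 162 in YAP1on tumors (2.37; SD, n = 4 each). Slc47a1, an exporter of cationic drugs, rose by 2.46 on the log2 scale and Slc22a26, an organic anion transporter family member, by 2.60. Upp2, a uridine phosphorylase, rose by 2.41 and F11, coagulation factor XI, by 2.40. Lying outside the hepatocyte list does not mean absence from liver. FAH liver averaged 94290 for Car3, 30750 for Nat8f2, 27350 for Upp2, 5216 for Hsd3b7, 4530 for Slc47a1, 4002 for Acss2 and 2148 for F11. Slc22a26 averaged 10.6 there.

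Among the rest of these genes was Rtp3, a member of a family of receptor transport proteins, with 1420, 1372, 1256 and 1383 in day 6 tumors, against 226, 263, 225 and 254 in YAP1on tumors. Its groups were each tight and lay apart (log2 fold change 2.49, SE 0.15, adjusted p = 3.56e-08). Csrp3, a LIM protein best known from muscle, averaged 504.5 ± 88.0 in day 6 tumors and 95.7 ± 27.6 in YAP1on tumors (2.42, adjusted p = 4.74e-07). In absolute abundance the largest gains among genes outside both lists were those of mt-Atp6 and mt-Nd2, subunits made in the mitochondrion, of Rnase4, a secreted ribonuclease, of Nat8f2, and of Serpinc1 and Plg, the precursors of antithrombin and plasmin. The call of mt-Atp6 (log2 fold change 0.75, adjusted p = 0.0305) was lost without day 6 tumor 1, 2, 3 or 4 or YAP1on tumor 2 or 4, with adjusted p from 0.0562 to 0.0915.

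Of 30 tested genes of fatty acid synthesis and lipid droplets 17 rose, 0 fell and 13 did not pass, with a median log2 fold change of 0.58. With quantile normalization or with only the 8 tumors 2 fell. Acacb, the acetyl-CoA carboxylase of the mitochondrial surface, had 4150, 5630, 3726 and 3739 in day 6 tumors, against 751, 621, 845 and 837 in YAP1on tumors. Day 6 tumor 2 was the highest and the groups lay well apart (2.48, SE 0.19, adjusted p = 2.47e-07). Scd1, the desaturase that makes oleate, averaged 26110 ± 2830 in day 6 tumors and 6268 ± 1470 in YAP1on tumors (2.09, adjusted p = 0.00109). Fasn, fatty acid synthase, averaged 3095 ± 608 in day 6 and 999.1 ± 236 in YAP1on tumors (1.64, adjusted p = 0.000135). The desaturase Fads2 (1.73), the elongases Elovl2 (1.51) and Elovl5 (1.47) and Mlxipl (1.44), the carbohydrate response factor that drives lipogenic genes, rose as well.

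Lists of liver metabolism, secretion and organelles had more risen than fallen members, at shares from near to well above that over all genes. Of 29 genes of retinoid and steroid metabolism 18 rose and 2 fell (median 0.69; 1 fell without any 1 tumor other than YAP1on tumor 1 or 4). The retinol dehydrogenases Rdh9 (1.81) and Rdh16 (1.44) rose, and Aldh1a2, which makes retinoic acid, fell by 1.83. Its call was lost without YAP1on tumor 4 (adjusted p = 0.0541), where 0 of the 29 fell. Of 30 peroxisome genes 14 rose and 0 fell (median 0.37), led by Agxt, the enzyme that detoxifies glyoxylate (2.23). Of 35 coagulation and complement factors 17 rose and 0 fell (median 0.71), among them Mbl2, a lectin of complement activation (2.32), and Klkb1, prekallikrein (2.19). With quantile normalization 15 of these factors rose and 3 fell. Many genes of these 2 lists are themselves made by hepatocytes. Of 13 genes encoded by mitochondrial DNA 6 rose, but their summed abundance overlapped, with 1527000 to 1831000 in day 6 and 848000 to 1588000 in YAP1on tumors. The number that rose was 3 without day 6 tumor 4, YAP1on tumor 2 or YAP1on tumor 4, and 11 without YAP1on tumor 1. With quantile normalization 1 of the 13 rose. Of 32 lysosome and autophagy genes 5 rose (15.6%) and 1 fell, and of 33 nuclear respiratory chain genes 5 rose (15.2%) and 0 fell, near the 12.8% higher over all genes.

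**Figure D2:**
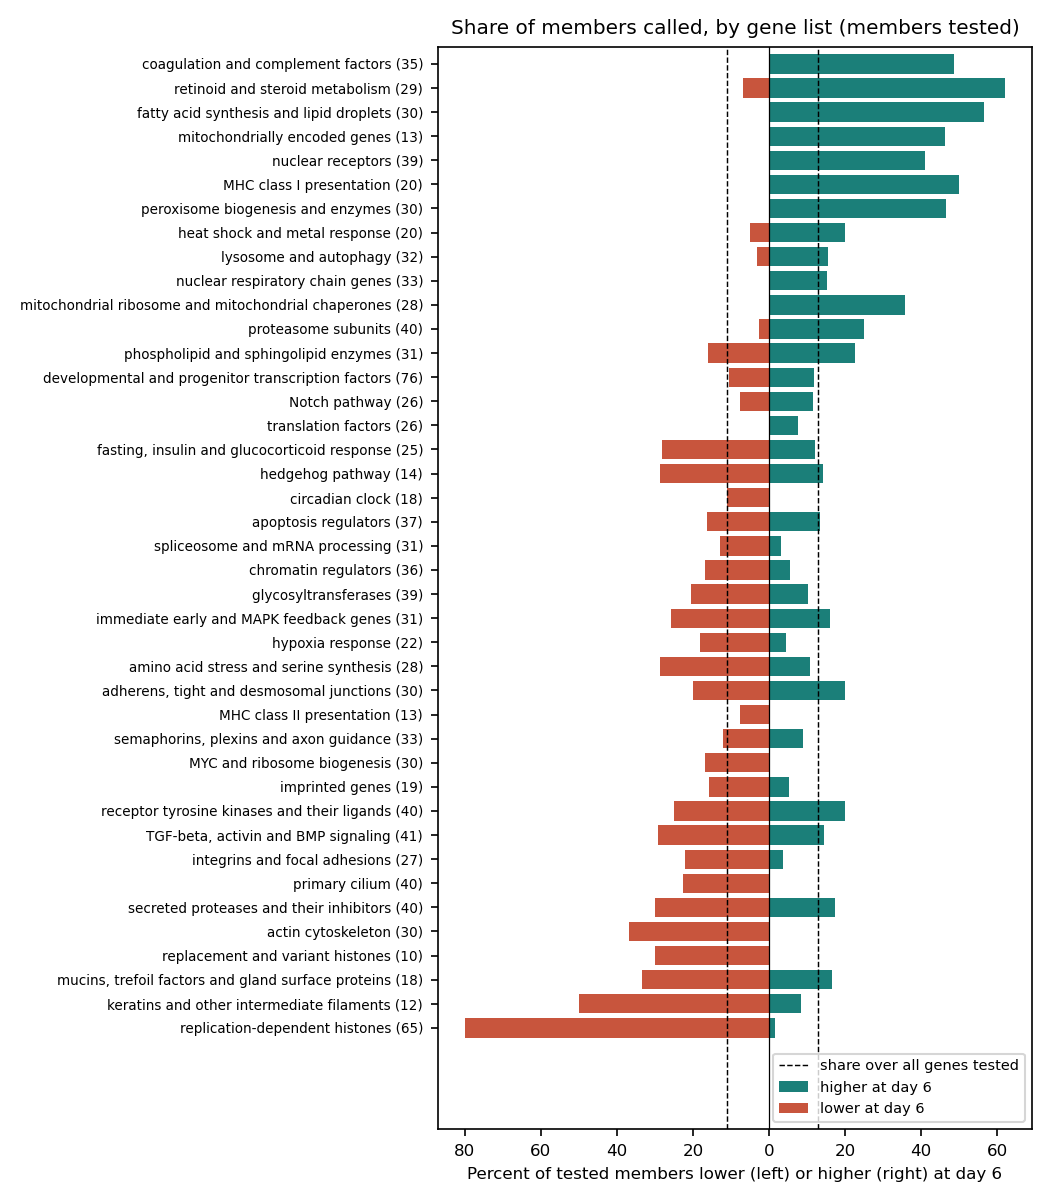
Percent of tested members of each of the process, transcription factor and state lists that were higher (bars to the right) or lower (bars to the left) at day 6, with the number of tested members after each name; lists are ordered by median log2 fold change. Dashed lines mark the 12.8% and 10.9% found over all genes tested; 80% of the 65 replication-dependent histone genes were lower and 62.1% of the 29 retinoid and steroid genes were higher.

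The 12 abundant genes of largest fall included surface and secreted proteins of gland, duct and progenitor cells. Psca, a small protein anchored to the surface of gland epithelia, had 2.32, 0, 2.18 and 0 in day 6 tumors, against 555, 1029, 777.5 and 648.7 in YAP1on tumors. It was at or near 0 in every day 6 tumor (log2 fold change -8.67, SE 0.65, adjusted p = 2.37e-07), so the size of the fitted change depends on the pseudocount of 1. Muc13, a membrane mucin, had 33.5, 40.9, 48.8 and 30.6 in day 6 tumors, against 582.1, 1060, 1389 and 988.5 in YAP1on tumors. The highest day 6 tumor lay far below the lowest YAP1on tumor (-4.63, SE 0.37, adjusted p = 3.76e-07). Fgfbp1, which frees fibroblast growth factors from the matrix, had 190, 111.9, 171.9 and 108.4 in day 6 tumors and 1873, 3367, 2362 and 2098 in YAP1on tumors (-4.06, adjusted p = 4.01e-07). Of 18 tested mucins, trefoil factors and gland surface proteins 6 fell (33.3%, against 10.9% over all genes) and 3 rose (16.7%, against 12.8%). Among the 3 that rose was Tff1, a trefoil peptide, with 80.5 to 106.2 in day 6 and 13.1 to 23.7 in YAP1on tumors (2.31, adjusted p = 0.00113).

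Others of these 12 fallen genes included a channel, a kinase and an actin-associated protein. Scn7a, a sodium channel, had 231.5, 208.2, 621.5 and 247.7 in day 6 tumors, against 2736, 3952, 3033 and 4016 in YAP1on tumors. Day 6 tumor 3 lay far above the other day 6 tumors and still below every YAP1on tumor (-3.52, SE 0.32, adjusted p = 1.38e-06). Spp1, osteopontin, a secreted phosphoprotein of bile duct cells and macrophages, averaged 3494 ± 2040 in day 6 tumors and 32460 ± 3570 in YAP1on tumors (-3.36). Zfp185, an actin-associated LIM protein (-3.63), Parm1, a mucin-like membrane protein (-3.24), Pak3, a p21-activated kinase (-2.96), Cryab, a small heat shock protein (-2.96), and Fxyd3, a regulator of the sodium pump (-2.78), fell. The rule that named them asked for groups that do not overlap, as 14.1% of all genes were lower without overlap and 18% higher. By loss of absolute abundance the largest were Chd9, a chromatin remodeler (27270 to 37250 in day 6, 50900 to 86670 in YAP1on tumors, -1.12), Spp1, Yap1, Tmsb4x, Rack1 and Gpc3. Tmsb4x, which holds actin monomers, overlapped by tumor (7182 in day 6 tumor 4, 7155 in YAP1on tumor 4; adjusted p = 0.0401), and its call was lost without any 1 of the 8 tumors other than YAP1on tumor 4 (adjusted p 0.0522 to 0.134).

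**Figure D3:**
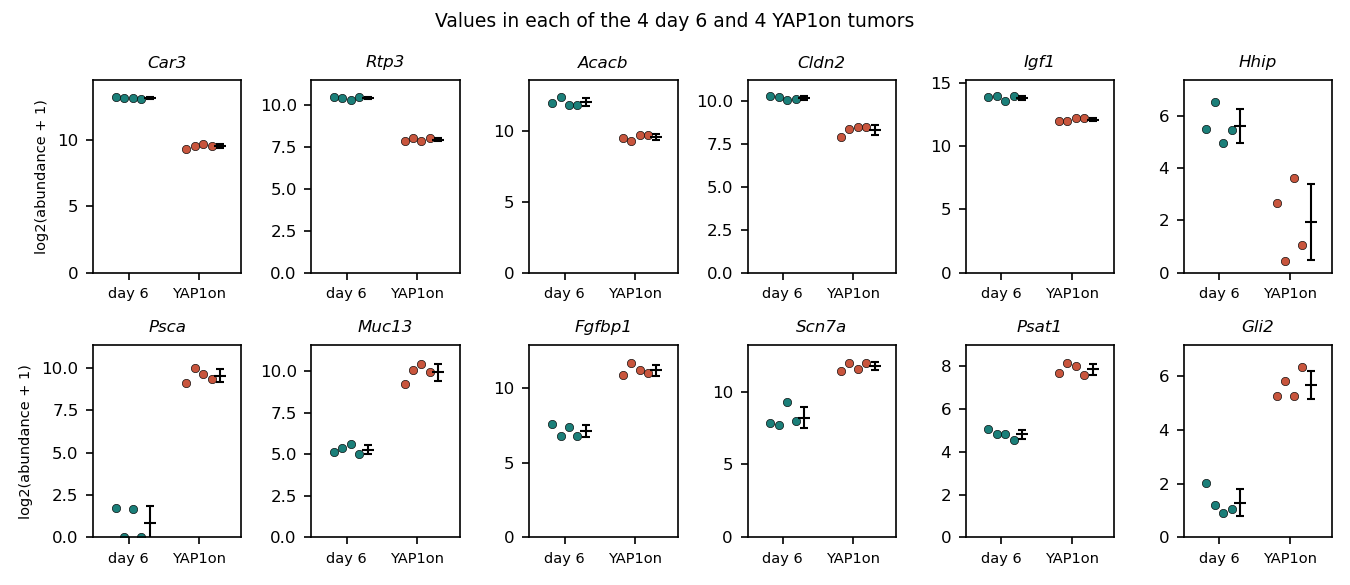
Log2(abundance + 1) of 12 genes in each of the 4 day 6 tumors (green, left) and 4 YAP1on tumors (red, right); points run from tumor 1 to tumor 4, and the bar beside them is the mean with its SD, cut at 0 for Psca. The 6 genes of the top row were higher and the 6 of the bottom row lower at day 6, and in none of the 12 did the groups overlap. The rule that named several of them asked for no overlap. Over all genes 18% were higher and 14.1% lower without overlap. Psca reached 0 in day 6 tumors 2 and 4.

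Among transcription factors, many nuclear receptors were higher. Of 39 tested nuclear receptors 16 rose and 0 fell, with a median of 0.46; without day 6 tumor 3, 1 fell. Nr0b2, a corepressor of bile acid synthesis, had 1299, 1438, 1031 and 1445 in day 6 tumors, against 314, 309, 423 and 350 in YAP1on tumors (1.90, SE 0.15, adjusted p = 4.16e-07). Nr1i3, the drug-sensing receptor CAR (1.63), Rxrg (1.02), one of the shared partners of these receptors, Pparg, a regulator of fat storage (0.81), and Nr1h4, the bile acid receptor (0.71), rose as well. Of 76 developmental and progenitor factors 9 rose (5 without YAP1on tumor 2) and 8 fell, shares close to those over all genes. Those that fell were led by Klf5, a factor of gut and duct epithelia, with 30.6, 29.9, 55.0 and 18.98 in day 6 tumors, against 122.9, 196.5, 123.7 and 223 in YAP1on tumors (-2.32, adjusted p = 0.000127). The YAP1 partners Tead4 (110.7 ± 37.1 in day 6, 387.5 ± 107 in YAP1on tumors, -1.81) and Tead1 (268.2 ± 29.7 in day 6 and 708.6 ± 130 in YAP1on tumors, -1.39) fell too. So did the duct and progenitor factors Sox9 (-1.35) and Sox4 (-1.08). Tbx3, a beta-catenin target of pericentral liver, rose (3452 ± 183 in day 6 and 1492 ± 202 in YAP1on tumors, 1.22), as did Tox (1.31), a factor of lymphocyte development.

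Growth factor receptors and ligands moved in both directions. Of 40 receptor tyrosine kinases and ligands 8 rose (20%, against 12.8% over all genes) and 10 fell (25%, against 10.9%). Igf1, the growth factor that liver secretes under growth hormone, had 14870, 15850, 12300 and 15900 in day 6 tumors, against 4001, 4203, 4858 and 4728 in YAP1on tumors. Day 6 tumor 3 was the lowest of its group and still far above every YAP1on tumor (1.72, SE 0.20, adjusted p = 1.23e-05). The epidermal growth factor receptor Egfr (1.27) and its relative Erbb3 (1.24) rose, while their relative Erbb2 fell (167.5 ± 20.5 in day 6, 415.7 ± 95.7 in YAP1on tumors, -1.28, adjusted p = 0.000805). Fgfr1, a fibroblast growth factor receptor (-1.66), and Ddr1, a collagen receptor (-1.79), fell. Of 31 immediate early and MAPK feedback genes 5 rose (16.1%, near the 12.8% over all genes) and 8 fell (25.8%, against 10.9%). Without day 6 tumor 1, day 6 tumor 2 or YAP1on tumor 4, 5 fell. Phlda1, an inducible nuclear protein, rose (801.2 ± 117 in day 6 and 187.6 ± 22.4 in YAP1on tumors, 2.08), and Spry1, an inhibitor of the MAPK path, fell (-1.06).

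In the hedgehog pathway the ligand Ihh frees Smo from its receptor, and Gli factors then act in the nucleus. Here 4 of 14 tested members fell (28.6%, against 10.9% over all genes) and 2 rose (14.3%, near the 12.8% over all genes). Their median log2 fold change was -0.03. Hhip, a surface protein that binds the ligand and holds it back, had 44.3, 90.9, 30.2 and 43.2 in day 6 tumors, against 5.41, 0.359, 11.3 and 1.11 in YAP1on tumors. Gli2, an activating factor of the pathway, had 3.10, 1.28, 0.853 and 1.085 in day 6 tumors, against 37.4, 55.1, 37.5 and 81.0 in YAP1on tumors. Neither gene overlapped between groups, in opposite directions (Hhip 3.66, SE 0.53, adjusted p = 0.00012; Gli2 -4.38, SE 0.46, adjusted p = 5.49e-06). Both were low, and levels near 0 make the sizes depend on the pseudocount. Ihh (-1.45) and Smo (-0.91) fell, and Gas1, a ligand coreceptor, rose (1.62).

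Of 41 genes of TGF-beta, activin and BMP signaling 12 fell (29.3%, against 10.9% over all genes) and 6 rose (14.6%, near the 12.8% over all genes). The ligand Bmp4 had 40.03, 71.0, 106.9 and 45.2 in day 6 tumors, against 159.1, 575, 425.9 and 275.8 in YAP1on tumors, without overlap (-2.38, adjusted p = 0.00021), and the BMP target Id1 fell by 1.65. The 6 that rose did so by less than 1 on the log2 scale, and 2 rose without day 6 tumor 4 or YAP1on tumor 2 and 3 without day 6 tumor 2 or YAP1on tumor 1. Of 40 secreted proteases and inhibitors 12 fell (30%) and 7 rose (17.5%). The tissue inhibitors Timp1 (-1.92) and Timp2 (-1.89) and the protease Mmp7 (-3.10) were among the fallen, and the macrophage elastase Mmp12 (1.28) among the risen.

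Adhesion and cell shape genes moved in both directions. Of 30 junction genes 6 rose and 6 fell (20% each, against 12.8% higher and 10.9% lower over all genes). Cldn2, a tight junction claudin, had 1253, 1219, 1075 and 1126 in day 6 tumors, against 241.7, 334.2, 360.8 and 358.4 in YAP1on tumors, with the groups far apart (1.86, SE 0.13, adjusted p = 1e-07). The gap junction proteins of hepatocytes Gjb1 (1.27) and Gjb2 (1.23) rose. Cldn6 (-1.94), a claudin of embryonic epithelia, Cdh6 (-1.53), a cadherin, and Epcam (-1.45), the adhesion molecule of ducts and progenitors, fell. Of 30 actin cytoskeleton genes 11 fell and 0 rose (median -0.34), among them Tmsb10 (-1.23), which holds actin monomers, and Myl12a (-1.19), a myosin light chain. With quantile normalization 18 fell and 1 rose. Of 12 keratins and other intermediate filaments 6 fell and 1, Nes, rose. A list of collagens, chosen after values were seen, had 12 of 36 fallen and 0 risen (7 fallen without day 6 tumor 1, YAP1on tumor 3 or YAP1on tumor 4; 1 rose with quantile normalization). The summed collagen abundance overlapped, with 38680 to 55300 in day 6 and 26990 to 50230 in YAP1on tumors.

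Of 28 genes of amino acid stress and serine synthesis 8 fell (28.6%), 3 rose (10.7%) and 17 did not pass. Over all genes 10.9% fell and 12.8% rose. Psat1, the aminotransferase of serine synthesis, had 33.1, 27.4, 27.5 and 22.6 in day 6 tumors, against 208.1, 285, 255.9 and 193.7 in YAP1on tumors. Phgdh, the first enzyme of that path, had 32.6, 22.5, 30.5 and 22.6 in day 6 tumors, against 133.1, 252.1, 206.6 and 173.3 in YAP1on tumors. The groups lay far apart for both (Psat1 -3.04, adjusted p = 3.28e-05; Phgdh -2.76, adjusted p = 6.61e-05), and Asns, asparagine synthetase, fell by 1.61. Shmt2, the mitochondrial enzyme that turns serine into glycine, rose (1396 ± 114 in day 6, 538.3 ± 76.9 in YAP1on tumors, 1.38, adjusted p = 8.65e-07), and its cytosolic form Shmt1 rose by 0.79.

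Among state genes, Per1, a clock gene that glucocorticoids induce, had 1162, 832.5, 1244 and 1090 in day 6 tumors, against 2981, 3668, 4237 and 4161 in YAP1on tumors (-1.80, adjusted p = 4.53e-05). Other genes that glucocorticoids induce, Tsc22d3 (-0.78), Sgk1 (-0.75) and Fkbp5 (-0.64), fell. In the fasting, insulin and glucocorticoid list 7 of 25 fell (28%, against 10.9% over all genes) and 3 rose (12%, near 12.8%). Without YAP1on tumor 1, 1 rose. The hour of collection and feeding are not in the labels, and each group is 1 mouse, so these cannot be told apart from YAP1. Of 37 apoptosis regulators 5 rose (13.5%) and 6 fell (16.2%), not far from the 12.8% and 10.9% over all genes (median -0.08). Without day 6 tumor 1, day 6 tumor 2 or YAP1on tumor 1, 3 fell. Bbc3, a killer protein of the BCL2 family, rose (186.4 ± 22.7 in day 6, 63.97 ± 10.9 in YAP1on tumors, 1.54, adjusted p = 6.84e-06). Its opponents Bcl2 (287.0 ± 28.6 in day 6 and 629.4 ± 51.0 in YAP1on tumors, -1.13) and Bcl2l1 (-0.74) fell.

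By gene name stems with at least 12 tested members, the stems with the highest share of risen genes were Ugt (16 of 20), Ces (13 of 18), Mup (15 of 21) and Rdh (8 of 13). Those with the highest share of fallen genes were Hist (52 of 65), the histones made for replication, Fkbp (7 of 13), peptidyl-prolyl isomerases, Kif (15 of 37), kinesin motors many of which serve mitosis, and Sept (5 of 13), septins of the cell cortex and division furrow. In the Fkbp family Fkbp11, an isomerase of secretory cells (-1.49), and Fkbp1b (-1.94) fell, whereas Fkbp4, a partner of HSP90, rose by 0.76. The 20 Ugt and 21 Mup members, like the Gbp, Nat8f and Slc22a genes, include near-identical copies among which reads were shared by estimation, so the level of a single member is uncertain.

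Many of the genes that interferon gamma induces rose. Interferon gamma from lymphocytes induces IRF1, which binds short elements upstream of guanylate binding proteins (Gbp), immunity-related GTPases and lymphocyte-attracting chemokines. Of 18 tested interferon inducible GTPases, a list chosen after values were seen, 12 rose and 0 fell (median 0.70 against 0.02 over all genes). Their summed abundance was 34990 to 39960 in day 6 tumors and 15020 to 18210 in YAP1on tumors, without overlap. Iigp1 and Gvin1 held the largest parts of the day 6 sum, with means of 13000 and 6476, against 4769 and 1837 in YAP1on tumors. Gbp11 had 262.5, 265.7, 233.6 and 256.0 in day 6 tumors, against 47.95, 47.5, 44.3 and 41.0 in YAP1on tumors. Iigp1 had 12780, 13920, 12430 and 12850 in day 6 tumors, against 4379, 5112, 5328 and 4259 in YAP1on tumors. All 4 day 6 tumors lay above all YAP1on tumors for both genes (Gbp11 2.47, SE 0.16, adjusted p = 7.64e-08; Iigp1 1.45, SE 0.21, adjusted p = 0.000106), and Gbp10 rose by 2.75, the largest change of the list. FAH liver averaged 552.6 for Gbp11, 6245 for Iigp1 and 65.3 for Gbp10. Gvin1, a very large GTPase, rose by 1.83 (adjusted p = 0.0289), with 6001, 7298, 6568 and 6037 in day 6 tumors, against 1369, 2262, 1821 and 1896 in YAP1on tumors. Its call was lost without any 1 tumor other than YAP1on tumor 2 (adjusted p 0.0506 to 0.0788), while the log2 fold change stayed at 1.70 to 1.94. The shared spread of Gvin1 also holds hbHep mice at 9.58, 0 and 14.6, and with only the 8 tumors the adjusted p was 3.26e-05. Irf1 (0.79, adjusted p = 0.000577) rose, as did Cd274, the checkpoint ligand PD-L1 (0.73, adjusted p = 0.00176).

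RefSeq gave a promoter window for 10 of the 18 GTPases, and for each of the 10 at least 1 window of 250 bases before a start site held, on either strand, a pair of TTTC with any 2 bases between them, the core of the element that IRF factors bind. Gbp3 has 2 windows, of which the other (chr3:142560106-142560355) held 0. Of the 10 genes 6 rose and 4 did not pass. Of 12468 tested genes with a window 3.43% held it in at least 1. The windows of Igtp and Irgm2 share long stretches of letters around the match, so the 10 genes are not independent of one another. The windows are shown on GRCm38.p6, 5′ to 3′ along the gene and up to its start, for 3 GTPase genes that rose, for the chemokine Cxcl10 that rose and for Gbp2 that did not pass, with the matched letters in capitals (on the other strand the pair reads GAAA, and the capitals of Gbp3 cover 2 overlapping matches).
Gbp3 (chr3:142559794-142560043, plus strand): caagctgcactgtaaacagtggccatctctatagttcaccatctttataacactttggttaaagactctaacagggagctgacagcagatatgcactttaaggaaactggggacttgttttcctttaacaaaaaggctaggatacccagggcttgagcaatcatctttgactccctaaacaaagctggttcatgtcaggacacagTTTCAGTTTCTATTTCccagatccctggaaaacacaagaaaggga
Igtp (chr11:58199306-58199555, plus strand): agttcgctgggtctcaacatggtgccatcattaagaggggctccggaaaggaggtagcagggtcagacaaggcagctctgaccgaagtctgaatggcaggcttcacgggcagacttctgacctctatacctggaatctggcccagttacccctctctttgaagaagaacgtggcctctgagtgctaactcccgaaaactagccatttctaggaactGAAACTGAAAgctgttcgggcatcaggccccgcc
Irgm2 (chr11:58214727-58214976, plus strand): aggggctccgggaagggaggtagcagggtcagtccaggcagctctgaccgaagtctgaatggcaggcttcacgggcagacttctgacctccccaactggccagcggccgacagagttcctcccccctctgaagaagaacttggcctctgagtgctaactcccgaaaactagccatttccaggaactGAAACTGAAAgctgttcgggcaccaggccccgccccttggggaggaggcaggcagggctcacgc
Cxcl10 (chr5:92348890-92349139, minus strand): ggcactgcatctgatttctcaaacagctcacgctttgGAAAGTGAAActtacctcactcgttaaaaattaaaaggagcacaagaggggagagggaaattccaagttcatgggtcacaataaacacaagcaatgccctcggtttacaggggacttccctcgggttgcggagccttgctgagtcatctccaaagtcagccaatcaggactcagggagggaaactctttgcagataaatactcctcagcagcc
Gbp2 (chr3:142620413-142620662, plus strand): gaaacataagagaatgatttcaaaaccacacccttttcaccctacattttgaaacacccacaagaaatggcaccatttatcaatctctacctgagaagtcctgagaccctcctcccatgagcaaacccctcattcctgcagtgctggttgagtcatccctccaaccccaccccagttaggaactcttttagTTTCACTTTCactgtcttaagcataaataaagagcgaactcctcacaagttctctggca
The match stands 45 bases before the first start of Gbp3, 34 before Igtp, 64 before Irgm2, 213 before Cxcl10 and 59 before Gbp2. Gbp3 rose by 0.84, Igtp by 1.04, Irgm2 by 0.84 and Cxcl10 by 1.76 on the log2 scale, and Gbp2 had 0.49 (adjusted p = 0.127), so the letters were present whether or not a gene passed. The letters of 4 other factors were searched in the same windows, and shares are of genes with a window that held them in at least 1. For GGAATG, the core that TEAD factors bind, this was 16.4% of genes that fell at least 2-fold outside both lists, 17.2% of those that rose and 13.1% of all. For TGANTCA, the site of AP-1, it was 7.74% of genes that fell at least 2-fold outside both lists, 10.8% of those that rose and 6.35% of all. For TTTGAA, the cell cycle element CHR, it was 28% of fallen cell division genes and 14.3% of all. For CAAAGTCCA, read by HNF4A, it was 4.82% of risen hepatocyte list genes and 0.521% of all. Both strands were searched, and a match is only these letters in this window.

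Chemokines moved in both directions. In a list of chemokines chosen after values were seen, 9 of 28 rose (32.1%, against 12.8% over all genes). The 4 that fell made up 14.3%, against 10.9% over all genes (2 fell with quantile normalization). Cxcl10, which draws T cells through CXCR3, had 536, 616.8, 649.4 and 585.6 in day 6 tumors, against 175.5, 183, 180.4 and 164.2 in YAP1on tumors, with tight groups far apart (1.76, SE 0.25, adjusted p = 0.00011). Cxcl9, which binds the same receptor, rose by 1.56 (1448 ± 200 in day 6, 494.6 ± 103 in YAP1on tumors), and the T cell and macrophage attractants Ccl3 (2.06), Ccl4 (2.17) and Ccl5 (1.23) rose. The calls of Ccl3 and Ccl4 were lost with a pseudocount of 0.1 (adjusted p = 0.116 and 0.0876). Ccl2, which draws monocytes, had 80.2, 77.3, 117.1 and 95.1 in day 6 tumors, against 233.8, 141, 196.6 and 208.3 in YAP1on tumors (-1.06, adjusted p = 0.0102; adjusted p = 0.0739 with quantile normalization). Ccl17, which draws regulatory T cells, had 6.20, 6.999, 5.80 and 8.09 in day 6 tumors, against 91.4, 41.4, 60.9 and 28.0 in YAP1on tumors (-2.74, adjusted p = 0.000605).

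Among leukocyte markers, the lymphocyte markers that passed were higher and the macrophage and Kupffer cell markers that passed were lower. The part of these cells in the changes above was not tested. Of 18 tested lymphocyte markers (T, NK and B) 6 rose and 0 fell (2 without day 6 tumor 4 or YAP1on tumor 2, 3 without YAP1on tumor 4), and the sum of the 20 markers was 975.2 to 1156 in day 6 tumors and 521 to 853.7 in YAP1on tumors. None of the 20 was at 0 in all 8 tumors. Cd8a, a receptor chain of cytotoxic T cells, had 135.1, 127.3, 230 and 169.9 in day 6 tumors, against 99.4, 73.9, 72.1 and 73.2 in YAP1on tumors (1.02, SE 0.22, adjusted p = 0.00274). Cd4 (48.65 ± 5.94 in day 6 and 32.8 ± 10.3 in YAP1on tumors, adjusted p = 0.184) and Trac, a T cell receptor constant gene (57.6 ± 5.90 in day 6 and 27.5 ± 2.39 in YAP1on tumors, adjusted p = 0.0586), did not pass. The groups did not overlap for Trac (52.2 to 65.9 in day 6 and 25.2 to 29.9 in YAP1on tumors), its shared spread also holds hbHep mice at 5.92 to 28.1, and with only the 8 tumors it passed (adjusted p = 0.000603). Of 20 class I antigen presentation genes 10 rose and 0 fell (5 rose without day 6 tumor 1, 2 or 3 or YAP1on tumor 1; 5 rose and 1 fell with quantile normalization). Of 13 class II genes 0 rose and 1 fell (0 fell without any 1 tumor other than YAP1on tumor 2, and 3 fell with only the 8 tumors; at an unadjusted p under 0.05 0 were higher and 2 lower). Of 21 macrophage and Kupffer cell markers 8 fell and 0 rose (5 fell without day 6 tumor 1, and 13 with quantile normalization or only the 8 tumors). Their sum without Spp1 was 31410 to 38830 in day 6 and 50990 to 65080 in YAP1on tumors. Among them Csf1r, the receptor of the macrophage growth factor, fell by 1.15 and Cd163, a scavenger receptor of macrophages, by 1.77. Cd68 (753.5 ± 131 in day 6, 725 ± 137 in YAP1on tumors), Adgre1 and Clec4f, the defining marker of Kupffer cells (1944 ± 582 in day 6 and 2839 ± 962 in YAP1on tumors), did not pass.

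Markers of other cells gave these values beside the changes above. Of 20 endothelial markers 5 rose and 0 fell (2 or 3 rose in every fit without 1 tumor other than that without day 6 tumor 3, and 3 with quantile normalization), with a sum of 14850 to 21040 in day 6 and 12700 to 16590 in YAP1on tumors. Of 20 stellate cell and fibroblast markers 6 fell and 0 rose (3 without day 6 tumor 1 or 4 or YAP1on tumor 3 or 4), with overlapping sums of 15690 to 22300 in day 6 and 16080 to 24680 in YAP1on tumors. Of 16 cholangiocyte markers 7 fell and 0 rose (4 without day 6 tumor 4 or YAP1on tumor 4); the list's sum without Spp1 was 6139 to 7278 in day 6 and 6755 to 9085 in YAP1on tumors. Of 13 neutrophil, 7 mesothelial and 8 platelet markers 0 passed with limma; at an unadjusted p under 0.05, 1 neutrophil and 2 mesothelial markers were lower and 0 platelet markers differed. None of the markers of these 6 cell types was at 0 in all 8 tumors. The part of these cells in the changes of other genes was not tested.

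**Figure D4:**
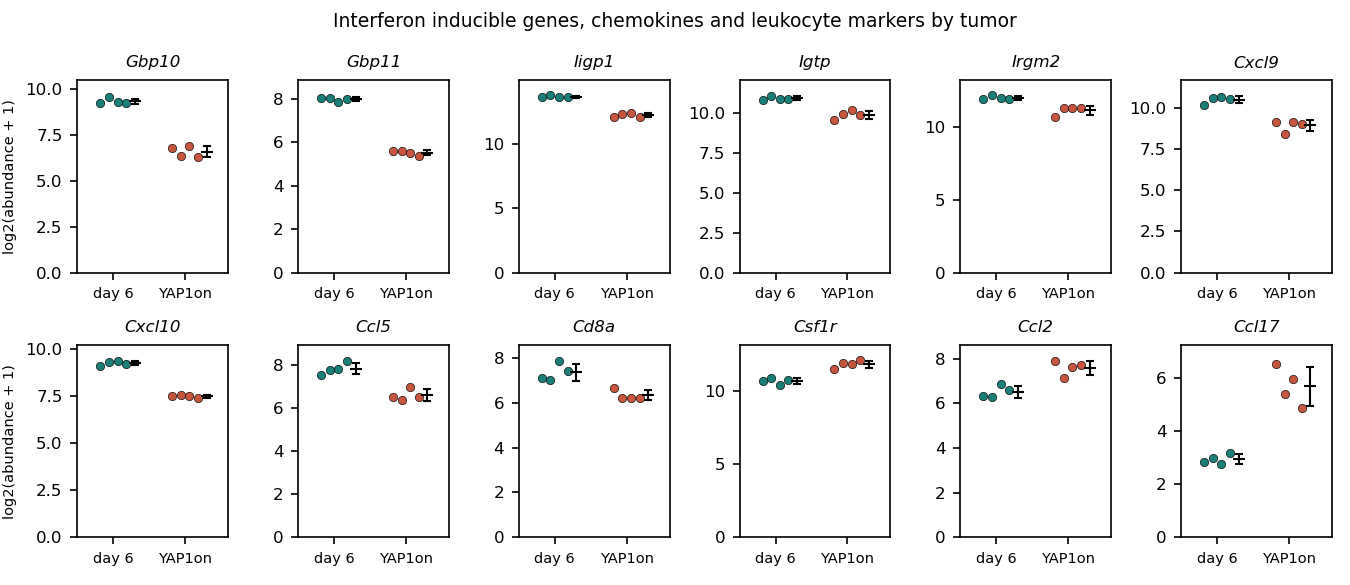
Log2(abundance + 1) of 5 interferon inducible GTPases, 5 chemokines and 2 leukocyte markers in each of the 4 day 6 tumors (green, left) and 4 YAP1on tumors (red, right), with the mean and SD beside the points of tumors 1 to 4. The first 9 genes were higher and Csf1r, Ccl2 and Ccl17 lower at day 6, and no gene overlapped between groups. The genes shown were picked with their values known, and over all genes 18% were higher and 14.1% lower without overlap.

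The 4 day 6 tumors were not equally far from the YAP1on tumors. Of the 729 genes outside both lists that fell at least 2-fold, day 6 tumor 3 was the day 6 tumor nearest to the YAP1on group for 52.3%, and the other day 6 tumors for 14.7 to 17%. Of the 616 that rose at least 2-fold, tumor 3 was nearest for 61.7%, and of 177 hepatocyte list genes that rose for 77.4%. For 211 fallen cell division genes the order was another one: day 6 tumor 2 was nearest for 45.5%, tumor 4 for 29.9%, and tumors 1 and 3 for 12.3% each. Sox9 was highest in tumor 3 as Scn7a and Spp1 were (770.9 in tumor 3 and 301.9 to 415.2 in the other day 6 tumors), beside summed histone abundances of 21180 in tumor 3 and 23750 to 34500 in the other day 6 tumors. Day 6 tumor 3 had the highest relative depth of its group, 74% of the deepest library. This order is a description of 4 tumors of 1 mouse.

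**Figure D5:**
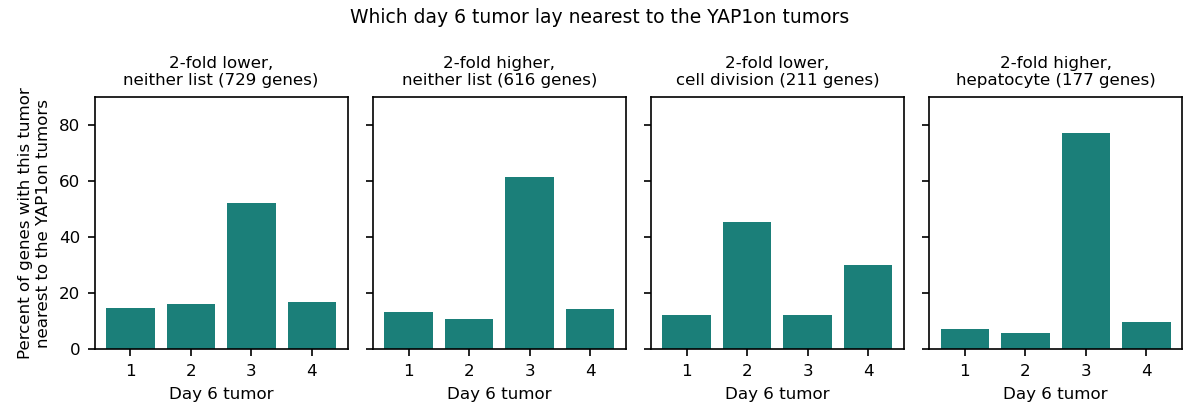
For 4 sets of genes that changed at least 2-fold (729 lower and 616 higher genes outside the hepatocyte and cell division lists, 211 lower cell division genes and 177 higher hepatocyte genes), the percent of genes for which each day 6 tumor had the level nearest to the YAP1on tumors. Tumor 3 was nearest for 52.3%, 61.7% and 77.4% of 3 of the sets and for 12.3% of the cell division genes, where tumor 2 led with 45.5%.

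Some genes at day 6 lay outside the range of every other RNA sample of the series. Only the 6 farthest above and the 6 farthest below are given, and the share of all genes that lay outside is not given. The other samples were the YAP1on tumors, 3 hbHep mice and 3 FAH livers. The last 2 groups carry another genotype label, and hbHep a far later day, so genotype, state and time cannot be told apart. Above all other samples were Tmem254b (4837 ± 354 in day 6, 393.4 ± 141 in hbHep, 357.5 ± 53.1 in FAH liver and 1156 ± 205 in YAP1on tumors), a membrane protein with near-identical copies, Lrit1 (means of 365.5 in day 6, 56.8 in hbHep, 83.96 in FAH liver and 48.8 in YAP1on tumors), Slc22a26, Gvin1 and 2 antibody variable gene segments. The segments Igkv12-41 (100.7 to 427.8 in day 6 and 0 to 3.76 in YAP1on tumors) and Ighv3-6 (108.1 to 533.9 in day 6 and 3.32 to 7.33 in YAP1on tumors) were both highest in day 6 tumor 2, where Igha, the antibody class of mucosa, was also highest (4203, against 1420 to 2342 in the other day 6 tumors). Of 34 tested antibody variable segments 7 rose and 5 fell (2 fell without day 6 tumor 1 or 4 or YAP1on tumor 1 or 3, and 3 without YAP1on tumor 4), and these counts moved widely with the filter on low values (19 rose and 8 fell without it).

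The 6 genes farthest below all other samples were of unlike function. Mthfd1l, which makes formate in the mitochondrion, had 56.6, 64.9, 65.3 and 67.3 in day 6 tumors, and averaged 724 ± 227 in hbHep, 502.5 ± 33.4 in FAH liver and 223.4 ± 50.3 in YAP1on tumors. Ddit4, a stress-induced inhibitor of mTORC1, had 187.4 to 235.7 in day 6 tumors and averaged 626.1 ± 267 in hbHep, 561.9 ± 192 in FAH liver and 656.7 ± 116 in YAP1on tumors. Cebpd, an inflammatory transcription factor, was 133.1 to 146.6 in day 6 tumors and 283.3 ± 52.5 in YAP1on tumors, and Golm1, a Golgi membrane protein raised in liver cancer, had 110.7 to 168.6 in day 6 and 319.1 ± 28.4 in YAP1on tumors. Ptgr1, which reduces prostaglandins, and Tmem41a, a membrane protein, completed the 6. Each was lower than in YAP1on tumors (limma adjusted p from 4.76e-06 for Mthfd1l to 0.0136 for Ptgr1). The rule that picked them asked for values below every YAP1on tumor, so these p-values add no support.

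The most variable abundant genes of the day 6 tumors were all highest in day 6 tumor 4. Ccnb1ip1 had 1140000, 525900, 868400 and 2827000 in day 6 tumors, against 1822000, 1270000, 1544000 and 508600 in YAP1on tumors, which was 2.49 to 12% of all signal in day 6 and 3.16 to 10.5% in YAP1on tumors. Ccdc107, Ncapd2, Creb5 and Lars2 likewise peaked in day 6 tumor 4, and Ccdc107 lies 281 bases from Rmrp, the gene of an abundant small RNA. None of the 5 passed between groups (adjusted p 0.394 to 0.962). In YAP1on tumors the most variable were Rps12l1, Gm28438, Cyp4a14, Wfdc21 and Apoa4, each with more abundance in tumors 1 and 3 than in tumors 2 and 4, and Apoa4, a lipoprotein of gut and liver, was 641.8 to 1210 in day 6 and 1754 to 7655 in YAP1on tumors (-2.39, adjusted p = 0.000965).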

How the data were processed

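Total RNA of whole tumor or liver pieces was extracted with Trizol and chloroform and sequenced on Illumina libraries, per the labels' protocols. Values are a signal for each gene and library that the authors deposited, taken to be reads per base after scaling. The submitters' processing notes name bcl2fastq, sleuth, the build GRCm38.p6 and kallisto (0.45.0). Of 36555 genes 35912 had a symbol. Of 32703 low values 42.5% were whole multiples of the smallest step (tolerance 0.02), so no count model was used; relative depth was read from those steps. Open chromatin intervals were not used here.

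Deposited values were divided by median-of-ratios factors over 17 libraries, and the 6 technical hbHep libraries averaged in pairs, which left 14 samples. Genes at 10 or more in at least 3 of the 14 were tested (17958) with limma 3.58.1 (lmFit, eBayes with a trend) in R 4.3.3 on log2(abundance + 1), with the 4 RNA groups in 1 model, Benjamini-Hochberg adjustment and a threshold of 0.05. The code was tested on simulated data. Some list members are not reported here. Single values of Yap1 and Ctnnb1 used two-sided exact permutation tests.

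Named genes included the 12 of largest change each way with a mean of 500 or more and no overlap, at most 2 per name stem. Others were the 6 of largest difference in abundance and the 6 farthest above or below all other samples. These rules left out the hepatocyte and cell division lists and names of clones (Gm, Rik) and pseudogenes. The 6 transcription factors of largest change, the top 2 of each list and direction and the 5 most variable per group were named without that exclusion. Of 57 lists beside the hepatocyte and cell division lists, 6 were chosen after values were seen, and some named genes too. The comparison, lists and rules were chosen with earlier results of these data known. Positions and promoter sequences are from RefSeq on GRCm38.p6, the build of the files. Alternatives were the deposited values, quantile normalization, pseudocounts of 0.1 and 10, other filters, only the 8 tumors, a replicate block and leaving out each tumor.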

Additional observations from a re-analysis of the deposited data

Results flagged for a closer look

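Of 476 groups of 4 tumors checked over 238 named genes, 24 (5.04%) had 1 tumor far from the other 3, by Dixon's test at 95%; chance gives about 1 in 20. The far tumor was YAP1on tumor 1 for 12 genes. It was low for Acss2 (827.5, others 1129 to 1162), Plg (11500, others 22200 to 23240), Pigr (1413, others 2641 to 2815), Phlda1 (154.1, others 197.2 to 200.4), Spry1 (475.8, others 663.3 to 694.9), Pcyt2 (1868, others 2132 to 2186), Ihh (370.9, others 537.5 to 571.5), Bbc3 (47.72, others 68.3 to 70.22), Irf1 (381.3, others 423.6 to 432.2) and Irgm2 (1663, others 2487 to 2587). It was high for Elovl3 (0.5964, others listed at 0) and Cd8a (99.42, others 72.11 to 73.87).

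Day 6 tumor 3 was high for Scn7a (621.5, others 208.2 to 247.7) and Spp1 (6535, others 2193 to 2640) and low for Cyp4a14 (1396, others 2610 to 2940). Day 6 tumor 2 was low for Psmd8 (3048, others 3764 to 3926) and Srsf3 (1189, others 1474 to 1523) and high for Atg9a (3709, others 2667 to 2784) and Irgm1 (2687, others 2369 to 2383). Day 6 tumor 4 was high for Cd8b1 (62.88, others 50.02 to 51.26) and day 6 tumor 1 low for Col16a1 (19.68, others 34.04 to 35.9). YAP1on tumor 4 was low for Hmgb2 (80.32, others 136.2 to 147.9) and Creb5 (6727, others 17280 to 20410), and YAP1on tumor 2 was high for Tef (823.4, others 627.8 to 653.3).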

How the results depend on the processing

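The counts of risen and fallen genes stayed within 1.5 times of 2296 and 1952 under every alternative run. Without 1 tumor, 1756 to 2109 genes rose and 1523 to 1834 fell, and 715 to 837 rose and 864 to 995 fell by at least 2-fold. With only the 8 tumors 2855 rose and 2605 fell, and with quantile normalization 2438 rose and 2356 fell. Tumors of the same number did not deviate together (correlations -0.03, -0.124, -0.109 and -0.23), so the numbers pair nothing; with the replicate block 2051 rose and 1869 fell. Of 215 named genes called, 184 kept the call in all 8 fits without 1 tumor, 197 with the replicate block and 200 with quantile normalization. The direction turned in 7 genes, none of them called: with quantile normalization Ctnnb1 (-0.276), Creb5 (-0.198), Apoa1 (-0.02) and Cd68 (-0.005). Ccnb1ip1 had 0 with quantile normalization, which is no direction. Without 1 tumor, Ccnb1ip1 ranged from -0.529 to 0.279 and was above 0 without day 6 tumor 2 or 3 (0.038) or YAP1on tumor 1 (0.141) or 3 (0.061). Cd68 ranged from -0.037 to 0.171 and was below 0 without day 6 tumor 3 or YAP1on tumor 1 (-0.002) or 2 (-0.029). Creb5 ranged from -0.21 to 0.642 and was below 0 without tumor 4 of the day 6 or the YAP1on group (-0.059). Fgb ranged from -0.265 to 0.019 and was above 0 without YAP1on tumor 2, and Rps12l1 ranged from -0.345 to 2.985 and was below 0 without YAP1on tumor 4. The cause was not tested. Low depth limits genes of low abundance, where 1 read is a large step.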
